A study of Mus musculus with 14 samples.

Results

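BRG1 S1382E (SE) is a knock-in allele of Smarca4 in which glutamate, an amino acid often used to mimic a phosphate, replaces the serine at that position of BRG1. The 4 SE libraries of a 14-library RNA-seq series of mouse primary cortical neurons were set against the 2 libraries of their wild-type littermate control (WT). All 6 libraries are described here, and the other 8 belong to an alanine knock-in (S1382A, SA) and its own wild type. Neurons came from E16.5 embryos, and on day 5 in vitro every culture received 1 µM tetrodotoxin (TTX), a sodium channel blocker, and 100 µM APV, an NMDA receptor blocker, against spontaneous activity. On day 6 some cultures received 50 mM KCl, which depolarises neurons, for 1 h, and the others are the basal samples.

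The groups were SE basal (n = 2), WT basal (n = 1), SE after KCl (n = 2) and WT after KCl (n = 1). The labels give no sex, no strain and no word on whether a basal and a KCl library came from the same dish or embryo, so p-values measure the spread between these libraries, which may be technical. WT has 1 replicate number in each treatment. A difference between SE and WT therefore cannot be told apart from a difference between that 1 WT preparation and any other. Depth was even over the 6 libraries, at 22817933 to 23096206 estimated counts. Between 24522 and 25060 gene symbols were detected, and mitochondrial genes took 5.91% to 8.32%.

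BRG1 is the ATPase of the BAF (mammalian SWI/SNF) complexes, which use ATP to slide or evict nucleosomes and so open enhancers and promoters to transcription factors. In neurons these complexes act at genes induced by calcium entry, and the series title names phosphorylation of S1382 in that setting. The choroid plexus is the epithelium in the brain ventricles that secretes cerebrospinal fluid. It lies next to the embryonic cortex, and its cells are defined by transthyretin and by a set of water, ion and solute transporters.

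The transcript of the edited gene was measured first. Smarca4 (ENSMUSG00000032187.16, chromosome 9, 21616169 to 21704230, plus strand, GRCm38) stood at 431 and 428 CPM in SE at basal, against 422 CPM in WT. After KCl it stood at 473 and 422 CPM in SE, against 435 CPM in WT. CPM are counts scaled to library size with TMM factors. The groups overlapped after KCl, and the log2 difference between SE and WT over both treatments was 0.03 ± 0.07 (model SE; edgeR adjusted p = 0.998). These reads give no view of the edited codon, and the genotype label cannot be checked from them. Among 30 genes of BAF complex subunits none passed the test, and their median log2 difference was 0.01 with a range of -0.16 to 0.12. Bicra, a subunit of the GLTSCR1-containing complexes, had the lowest p of the list, at 32.4 and 30.2 CPM in SE and 35.6 CPM in WT at basal, and at 31.2 and 26.9 CPM in SE and 31.6 CPM in WT after KCl (log2 -0.16, adjusted p = 0.998). Dpf2, a histone-reading subunit, had a log2 difference of 0.12 and Smarcc1, a core scaffold subunit, of -0.09, and neither passed.

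SE and WT were compared in 1 model over both treatments, with treatment as a covariate. The clearest difference was a group of choroid plexus genes that was lower in SE. Of 16378 genes tested 37 passed an adjusted p of 0.05 by Benjamini-Hochberg and are referred to as called (0.226%), of which 31 were lower in SE (0.189%) and 6 were higher (0.0366%). Among the 37 called genes 27 differed at least 2-fold, and 23 of these were lower in SE. In 30 of the 31 called lower genes all 4 SE libraries lay below both WT libraries. The genes were called from these same 6 libraries, so this is not separate evidence. Each of the 37 lay on the same side of WT in both treatments. Of all tested genes 11.5% lay above WT at basal and again after KCl, and 11.1% lay below, but the model that made the calls used both treatments, so nothing is read from this.

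Most of these calls need the WT library after KCl. Without it 9 genes were called, of which 2 were among the 37, and of 33 called genes followed one by one 32 lost their call, with no change of direction. The differences themselves changed less. For the 33 genes the log2 difference without that library was at the median 0.827 times its size with it, and in 7 genes it was smaller by over 1.5 times. Aqp1 was at -3.37, Ttr at -3.04 and Folr1 at -1.48 without it, while Lrat was at -1.39 and Krt18, named after its values were seen, at -0.997. Without the WT library at basal 37 genes were called, 23 of them among the original 37. A fit of all 14 libraries, whose spread includes the SA line, called 0 genes (288 at an unadjusted p under 0.05), and so did basal and KCl counts summed into 7 cultures (177 at an unadjusted p under 0.05). In the 6-library fit 761 genes (4.65%) had an unadjusted p under 0.05, and DESeq2 called 23.

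**Figure D1:**
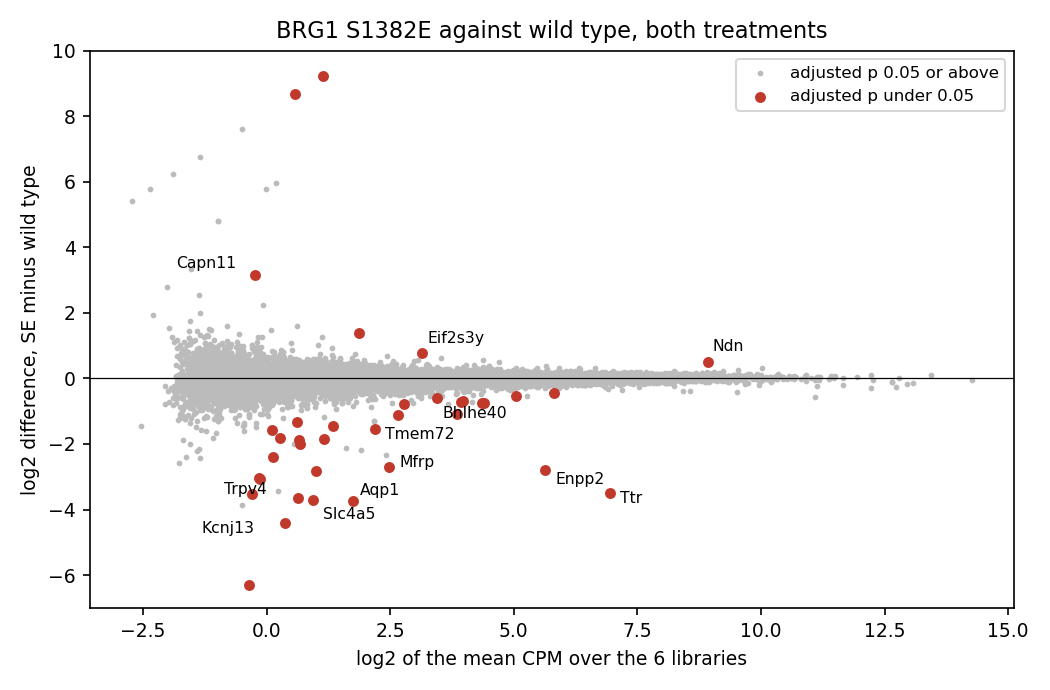
Each point is 1 of 16378 genes, with the log2 of its mean CPM over the 6 libraries on the x axis and the log2 difference, SE minus wild type over both treatments, on the y axis. Red points are the 37 genes with an edgeR adjusted p under 0.05; Ttr and Enpp2 are the most abundant of those that lie far below 0, and most other genes lie near 0.

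The secreted proteins of the choroid plexus carried the most reads. Ttr (ENSMUSG00000061808.4, chromosome 18, plus strand), which encodes transthyretin, the thyroid hormone carrier of cerebrospinal fluid, was at 0.686 and 38.0 CPM in SE at basal, against 158 CPM in WT. After KCl it was at 8.06 and 57.4 CPM in SE, against 482 CPM in WT. The groups did not overlap, SE replicate 1 was far below SE replicate 2 in both treatments, and the KCl library of WT was the highest of all. Over both treatments Ttr was lower in SE by a log2 difference of -3.49 ± 0.62 (adjusted p = 0.0262). Enpp2 (chromosome 15, 54838901 to 54952892, minus strand) encodes autotaxin, a secreted enzyme that makes lysophosphatidic acid. It was at 6.00 and 15.004 CPM in SE and 52.2 CPM in WT at basal, and at 5.53 and 35.2 CPM in SE and 186 CPM in WT after KCl. Its log2 difference was -2.81 ± 0.39 (adjusted p = 0.00384), and again replicate 1 was the lower of the SE pair in both treatments. All 4 Enpp2 transcripts that reached 1 TPM in any of the 6 libraries were lower in each SE library than in the WT library of its treatment. The main one, ENSMUST00000041591.15, was at 2.64 and 6.23 TPM in SE and 18.4 TPM in WT at basal, and at 1.98 and 13.6 TPM in SE and 78.2 TPM in WT after KCl.

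Channels and transporters of the same epithelium were also lower in SE, at low counts. Kcnj13 (chromosome 1, 87386363 to 87394729, minus strand), the Kir7.1 potassium channel of its apical membrane, was at 0 and 0.217 CPM in SE and 1.08 CPM in WT at basal. After KCl it was at 0.134 and 0.265 CPM in SE and 6.12 CPM in WT (log2 -4.41 ± 0.44, adjusted p = 1.85e-04). Every SE library held under 0.3 CPM of it. Aqp1 (chromosome 6, 55336432 to 55348555, plus strand), a water channel, was at 0.129 and 0.477 CPM in SE and 3.16 CPM in WT at basal, and at 0.223 and 1.68 CPM in SE and 14.4 CPM in WT after KCl. The fall of Aqp1 was -3.75 ± 0.37 on the log2 scale (adjusted p = 1.85e-04). Slc4a5, a sodium bicarbonate cotransporter, differed by -3.72 ± 0.40, with SE at 4.90% of WT after KCl and 14.9% at basal. Trpv4 (chromosome 5, 114622152 to 114658421, minus strand), a calcium-permeable channel that responds to osmotic swelling, was at 0.214 and 0.260 CPM in SE and 1.30 CPM in WT at basal, and at 0.312 and 0.398 CPM in SE and 6.91 CPM in WT after KCl. Unlike for Ttr, the SE replicates of Trpv4 lay close together, and its log2 difference was -3.63 ± 0.33 (adjusted p = 1.85e-04). Slc2a12, a glucose transporter, differed by -2.004 and Clic6, of the chloride intracellular channel family, by -1.84 (adjusted p = 8.74e-04 and 0.00132).

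The others of the 12 encode junction, vitamin A and membrane proteins. Mfrp (chromosome 9, 44101729 to 44109187, plus strand), a frizzled-related membrane protein best known from the retinal pigment epithelium, was at 0.514 and 2.04 CPM in SE and 5.33 CPM in WT at basal. After KCl it was at 1.83 and 3.05 CPM in SE and 20.8 CPM in WT (log2 -2.71 ± 0.27, adjusted p = 1.85e-04). Lrat, which esterifies retinol, was at 0.729 and 0.390 CPM in SE and 1.47 CPM in WT at basal, and at 0.446 and 0.795 CPM in SE and 8.13 CPM in WT after KCl (log2 -2.81 ± 0.38). SE stood at 38.0% of WT for Lrat at basal and at 7.63% after KCl. Cldn2, the claudin of leaky tight junctions, differed by -1.87 ± 0.34 (adjusted p = 0.0294), and St6galnac2, a sialyltransferase, by -2.39 ± 0.36 (adjusted p = 0.00642). All 12 had a higher level in WT after KCl than in WT at basal, as had 28 of the 31 called lower genes. The calls used that WT library, so a gene high in it was more likely to be called. No share over all genes was taken, and nothing about KCl is read from this count.

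**Figure D2:**
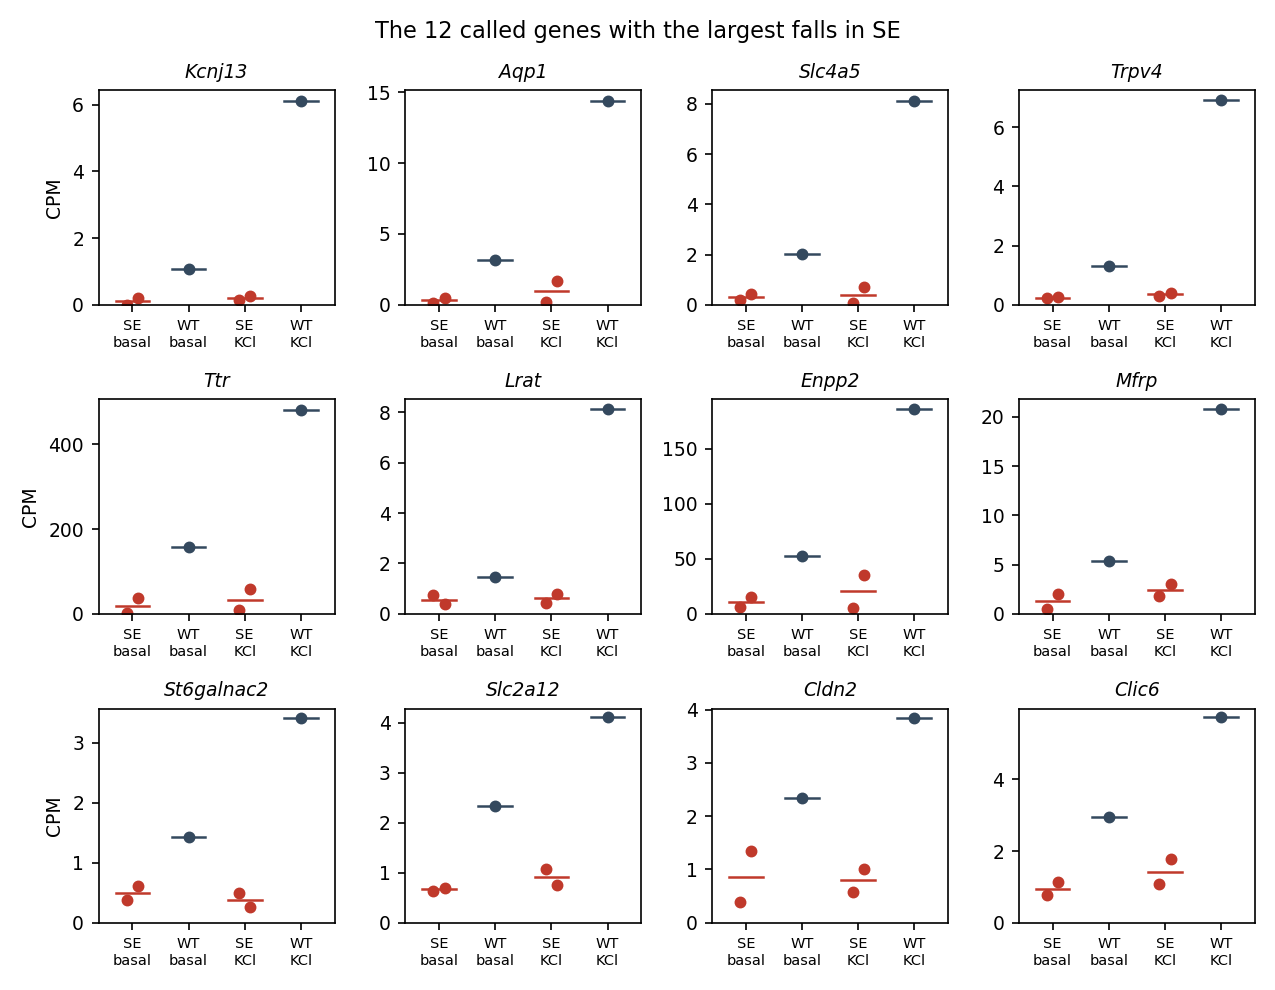
Each panel plots CPM of 1 gene, with a point per library and a line at the group mean, for SE basal (n = 2), WT basal (n = 1), SE KCl (n = 2) and WT KCl (n = 1), on its own linear axis from 0. In all 12 panels both WT points lie above all 4 SE points, and the WT point after KCl is the highest.

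The promoters of the 4 called lower genes with the lowest p are shown because these genes moved together, so that a reader can compare their sequences. The windows are from RefSeq on GRCm38.p6, from 250 bases before to 50 bases after the start, written 5′ to 3′ on the gene's strand. Capitals mark GGATTA, the core that OTX homeodomain proteins bind, searched on both strands as TAATCC or GGATTA; OTX2 is a transcription factor that choroid plexus epithelium needs.
Trpv4, chr5:114658372-114658671, minus strand: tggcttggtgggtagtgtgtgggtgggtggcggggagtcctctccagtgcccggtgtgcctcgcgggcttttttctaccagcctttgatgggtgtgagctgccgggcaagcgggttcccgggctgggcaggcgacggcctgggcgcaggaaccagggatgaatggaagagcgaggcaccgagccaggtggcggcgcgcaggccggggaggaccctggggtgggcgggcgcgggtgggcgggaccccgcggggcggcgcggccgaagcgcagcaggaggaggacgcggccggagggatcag
Aqp1, chr6:55336049-55336348, plus strand: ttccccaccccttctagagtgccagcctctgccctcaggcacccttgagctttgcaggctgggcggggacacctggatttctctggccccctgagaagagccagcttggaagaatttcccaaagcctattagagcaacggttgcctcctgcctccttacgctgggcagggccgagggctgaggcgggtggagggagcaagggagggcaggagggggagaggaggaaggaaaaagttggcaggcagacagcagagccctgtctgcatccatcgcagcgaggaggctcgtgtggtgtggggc
Kcnj13, chr1:87394680-87394979, minus strand: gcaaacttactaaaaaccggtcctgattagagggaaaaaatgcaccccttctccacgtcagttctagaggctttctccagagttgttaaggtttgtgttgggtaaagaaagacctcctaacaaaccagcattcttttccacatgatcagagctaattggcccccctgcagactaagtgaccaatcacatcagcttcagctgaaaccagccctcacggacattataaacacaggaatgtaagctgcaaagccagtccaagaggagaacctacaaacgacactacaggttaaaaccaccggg
Mfrp, chr9:44101520-44101819, plus strand: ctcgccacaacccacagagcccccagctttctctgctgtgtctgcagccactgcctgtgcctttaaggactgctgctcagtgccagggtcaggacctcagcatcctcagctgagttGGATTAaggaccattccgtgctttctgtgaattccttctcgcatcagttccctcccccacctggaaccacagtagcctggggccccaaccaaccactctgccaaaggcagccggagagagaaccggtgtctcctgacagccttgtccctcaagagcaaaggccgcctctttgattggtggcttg

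In Mfrp the hexamer began 134 bases before the start (offset -134). It was in none of the other 3 windows. Of the 31 called lower genes 17 had windows in the table, 19 in all, and 1 window (5.26%) held the motif, against 2320 of 32851 windows of the same length over all genes (7.06%).

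The list of choroid plexus and ependymal markers held 10 genes, all of them tested. It had 5 called genes, all lower in SE: Kcnj13, Ttr, Enpp2, Clic6 and Folr1. The median log2 difference of the 10 was -1.17, where that of all tested genes was 0.01. In both treatments 8 of the 10 lay below WT, as did 11.1% of all tested genes. All 10 share the same WT library in each treatment, and 5 were called from these same libraries, so this is not separate evidence. Folr1, the folate receptor that carries folate into cerebrospinal fluid, was at 1.29 and 1.17 CPM in SE and 3.42 CPM in WT at basal, and at 1.38 and 2.56 CPM in SE and 5.42 CPM in WT after KCl (log2 -1.46 ± 0.22, adjusted p = 0.00639). Otx2 had a log2 difference of -0.83 (adjusted p = 0.555), at 2.53 and 1.60 CPM in SE and 3.73 CPM in WT at basal, and 1.96 and 4.55 CPM in SE and 5.77 CPM in WT after KCl. Sostdc1, a secreted BMP and WNT antagonist, and Prlr, the prolactin receptor, had differences of -0.71 and -0.88 and did not pass. Foxj1, the transcription factor of motile cilia that marks ependymal cells, had a log2 difference of 0.08, and Kl, which encodes klotho, of -0.04. Both lay below WT at basal and above it after KCl, Foxj1 lying at 19.2 and 18.9 CPM in SE and 20.2 CPM in WT at basal and at 27.0 and 24.8 CPM in SE and 21.8 CPM in WT after KCl. The directions of Foxj1 and Kl changed when 1 WT library was left out.

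Summed over the 10 markers, the level was 23.1 and 86.6 TPM in SE at basal, against 304 TPM in WT. After KCl the sum was 39.0 and 143 TPM in SE, against 914 TPM in WT. WT was therefore 5.55 times the SE mean at basal and 10.03 times after KCl, and WT after KCl was itself 3.003 times WT at basal. SE replicate 2 was 3.75 times replicate 1 at basal and 3.67 times after KCl. Most of this sum is Ttr, which made up 4.75% and 68.7% of it in SE and 81.1% in WT at basal, and 33.4% and 64.6% in SE and 82.8% in WT after KCl. The other 9 markers, added up after these values were seen, came to 22.002 and 27.1 TPM in SE and 57.5 TPM in WT at basal, and to 25.98 and 50.7 TPM in SE and 157 TPM in WT after KCl. Without Ttr, WT was thus 2.34 times the SE mean at basal and 4.09 times after KCl, and SE replicate 2 was 1.23 and 1.95 times replicate 1. The groups did not overlap with or without Ttr, and the gap between the SE replicates was mostly that of Ttr. In the 8 libraries of the SA line the sum of all 10 ran from 344 to 1556 TPM, above both WT libraries of the SE line in some and between them in others, and without Ttr it was 115 to 254 TPM. In that line the WT replicates stood at 1477 and 563 TPM at basal and at 1556 and 602 TPM after KCl. The SA replicates stood at 383 and 994 TPM at basal and at 344 and 974 TPM after KCl. Without Ttr those WT replicates were at 242 and 220 TPM at basal and at 245 and 198 TPM after KCl. The SA replicates were then at 127 and 254 TPM at basal and at 115 and 244 TPM after KCl. In these bulk libraries fewer choroid plexus cells and less RNA per cell cannot be told apart. The part that the makeup of each dish has in the difference was not tested.

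**Figure D3:**
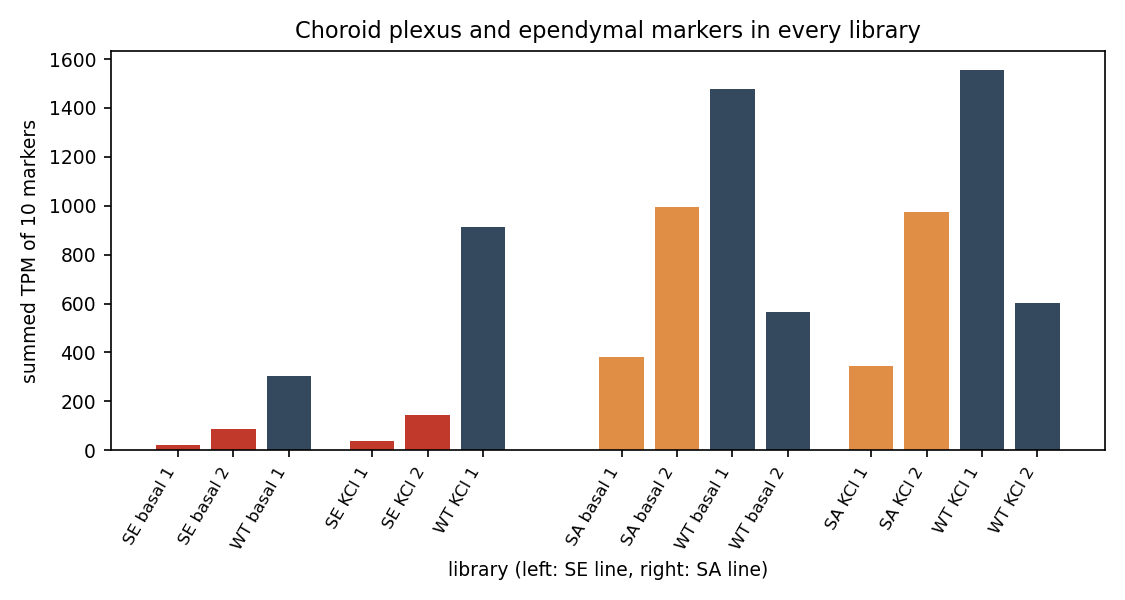
Bars give the summed TPM of the 10 choroid plexus and ependymal markers in each of the 14 libraries, with the SE line on the left and the SA line on the right. The 4 SE bars, 23.1 to 143 TPM, are the lowest of the 14, and the wild types of both lines run from 304 to 1556 TPM.

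Further called lower genes were likewise named after their values were seen. Kcne2, a potassium channel beta subunit, was at 0.0857 and 0.347 CPM in SE and 1.56 CPM in WT at basal, and at 0 and 0.265 CPM in SE and 2.62 CPM in WT after KCl (log2 -3.51, adjusted p = 0.00501). Krt18, a keratin of simple epithelia, was called at a log2 difference of -3.03. Car12, a carbonic anhydrase, differed by -1.11, the collagen genes Col8a1 and Col9a3 by -1.07 and -0.68, and Wfikkn2, a secreted inhibitor of growth differentiation factors, by -1.83. Bhlhe40, a transcriptional repressor of the circadian clock, was about as far below WT in either treatment, at 9.82 and 8.93 CPM in SE and 13.8 CPM in WT at basal, and at 9.85 and 8.79 CPM in SE and 14.6 CPM in WT after KCl. Its log2 difference was -0.60 ± 0.10 (adjusted p = 0.0187), and without the WT library after KCl it was -0.57 with an adjusted p of 0.669.

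Among named genes outside the sex-linked list and the pseudogenes, Ndn and Capn11 were the called genes that were higher in SE. Ndn (ENSMUSG00000033585.5, chromosome 7, 62346569 to 62350262, plus strand) encodes necdin, a MAGE family protein of postmitotic neurons that is expressed from the paternal allele. It was at 522 and 579 CPM in SE at basal, against 377 CPM in WT. After KCl it was at 522 and 524 CPM in SE, against 389 CPM in WT. The groups did not overlap, and the log2 difference was 0.49 ± 0.07 (adjusted p = 0.0063). Without either WT library it kept its size (0.54 without the KCl library, 0.44 without the basal one) and lost its call (adjusted p = 0.24 and 0.355). It was the 1 called member of 20 imprinted genes, whose median log2 difference was 0.02. Capn11, a calpain protease, was at 1.37 and 1.30 CPM in SE and 0.0866 CPM in WT at basal, and at 1.16 and 1.02 CPM in SE and 0.175 CPM in WT after KCl. It was named after its values were seen. Its log2 difference was 3.16 ± 0.46 (edgeR adjusted p = 0.00569). Without the WT library after KCl it was 3.86, and without the one at basal 2.61.

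Other named genes above WT in both treatments did not pass the test. Prickle4, a planar polarity family member, was at 2.32 and 2.91 CPM in SE and 1.26 CPM in WT at basal, and at 3.43 and 2.12 CPM in SE and 0.961 CPM in WT after KCl (log2 1.28, adjusted p = 0.102). Hist2h2aa1, a histone H2A gene with near-identical copies among which reads may be split, had a log2 difference of 1.59 (adjusted p = 0.051). Eomes, a transcription factor of intermediate progenitors, was at 19.6 and 20.1 CPM in SE and 13.4 CPM in WT at basal, and at 15.7 and 16.3 CPM in SE and 13.7 CPM in WT after KCl (log2 0.40, adjusted p = 0.272). Cdhr1 and Pcdha2, both of the cadherin superfamily, had log2 differences of 0.32 and 0.35. Stxbp6, a syntaxin-binding protein, had one of 0.57, the raft protein gene Rftn1 0.53, the collagen gene Col10a1 0.64, and Vtn, which encodes vitronectin, 1.48. Their adjusted p values ran from 0.158 to 0.29.

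Activity-regulated genes were the subject the series title names, and none of them was called between SE and WT. Of 33 tested immediate early genes, which respond within minutes without new protein synthesis, 26 had a log2 difference above 0 and 7 below, with a median of 0.07. Npas4, a neuronal transcription factor induced by calcium (chromosome 19, 4984355 to 4990316, minus strand), was at 8.75 and 7.89 CPM in SE and 5.89 CPM in WT at basal, and at 2386 and 1995 CPM in SE and 1861 CPM in WT after KCl. All SE values lay above WT in both treatments, with a log2 difference of 0.31 ± 0.10 that did not pass (adjusted p = 0.648). Fosb, an AP-1 subunit, was at 4.93 and 4.42 CPM in SE and 3.51 CPM in WT at basal, and at 1724 and 1407 CPM in SE and 1341 CPM in WT after KCl (log2 0.26, adjusted p = 0.944). Srf, which encodes serum response factor, had a log2 difference of 0.15 and Cyr61, a secreted matricellular protein gene, of -0.22. Fos, Egr1, Arc and Nr4a1, named after their values were seen, had log2 differences of 0.05, -0.03, 0.13 and 0.13. Each changed sign in at least 1 other setting.

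After KCl both SE libraries were above WT in 20 of the 33 immediate early genes (60.6%) and both below in 1 (3.03%), where over all tested genes 30.8% were above and 30.8% below. At basal both were above in 6 and both below in 13, where of 16378 tested genes 5384 were above and 4854 below. In both treatments 5 of the 33 lay above WT and 0 below, where 11.5% of all tested genes lay above and 11.1% below. All 33 genes share the same WT library in each treatment, so these counts are not 33 separate observations. Fos was at 1372 and 1234 CPM in SE and 1133 CPM in WT after KCl, and at 7.03 and 5.94 CPM in SE and 8.14 CPM in WT at basal. Nr4a1 was at 1876 and 1681 CPM in SE and 1540 CPM in WT after KCl, and Arc, a regulator of AMPA receptor trafficking, at 1136 and 909 CPM in SE and 900.1 CPM in WT. Between the SE replicates Arc differed by more than SE replicate 2 differed from WT.

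Delayed response genes, many of them coding for secreted peptides or synaptic proteins, also lay more often above 0 than below it. Of 26 tested, 21 had a log2 difference above 0 and 5 below (median 0.10), and none was called. In both treatments 12 lay above WT and 2 below, where 11.5% of all tested genes lay above and 11.1% below. All 26 share the same WT library in each treatment, so they are not separate observations. Bdnf, a neurotrophin, was at 4.76 and 4.81 CPM in SE and 3.73 CPM in WT at basal, and at 37.6 and 43.8 CPM in SE and 33.4 CPM in WT after KCl (log2 0.31 ± 0.10, adjusted p = 0.744). Vgf, a neuropeptide precursor, was at 21.5 and 23.4 CPM in SE and 18.9 CPM in WT at basal, and at 218 and 167 CPM in SE and 151 CPM in WT after KCl (log2 0.31, adjusted p = 0.699). Both lay above WT in all 4 SE libraries, and neither passed. Pcsk1, a prohormone convertase, had a difference of 0.29 and Grasp, a scaffold of metabotropic glutamate receptors, of 0.26. The 15 MAPK feedback genes had a median of 0.02 and none lay on 1 side of WT in both treatments, Dusp6, an ERK phosphatase, differing by -0.08 and Spry4, an inhibitor of receptor tyrosine kinase signalling, by 0.13.

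**Figure D4:**
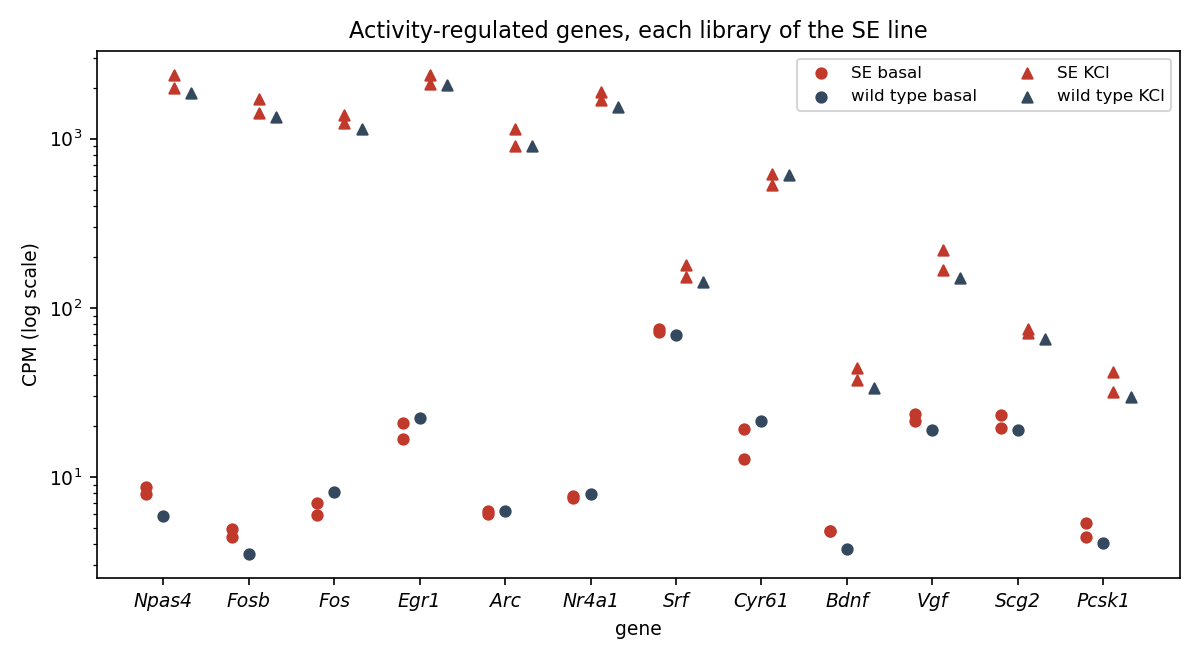
Points give CPM on a log axis for 12 activity-regulated genes in the 6 libraries, with SE red and left, wild type blue and right, circles for basal and triangles for KCl. The span between treatments exceeds the span between genotypes in every gene shown; Npas4, for example, lay between 5.89 and 8.75 CPM at basal and between 1861 and 2386 CPM after KCl.

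The cell type lists other than choroid plexus had no called member. Meningeal fibroblast markers had a median log2 difference of -0.19 over 12 tested genes. Of these, 4 lay below WT in both treatments, as did 11.1% of all tested genes. Col1a1, a fibrillar collagen, was at 6.52 and 4.21 CPM in SE and 9.79 CPM in WT at basal, and at 8.64 and 6.05 CPM in SE and 11.5 CPM in WT after KCl (log2 -0.75, adjusted p = 0.112). Its partner chain gene Col1a2 differed by -0.60 (adjusted p = 0.157). The summed level of the list was 35.9 to 51.2 TPM over the SE libraries and 40.4 to 46.3 TPM over those of WT. All 8 markers of Cajal-Retzius cells, the reelin-secreting neurons of the cortical surface, had log2 differences above 0 (median 0.17, range 0.11 to 0.27). Their sum was 144 to 161 TPM in SE and 130 to 139 TPM in WT. In both treatments 5 of the 8 lay above WT, as did 11.5% of all tested genes. The members of this list, like the meningeal ones, share the same WT library in each treatment, so they are not separate observations. Of 31 lists 5 had sums without overlap between SE and WT. These were higher in SE for Cajal-Retzius, interferon response (35.7 to 40.1 TPM in SE, 35.02 to 35.14 TPM in WT) and synaptic vesicle genes (3859 to 4166 TPM in SE, 3793 to 3822 TPM in WT). They were lower in SE for choroid plexus and erythroid genes (23.2 to 28.4 TPM in SE, 31.0 to 32.2 TPM in WT). How often sums of 4 libraries against 2 separate without a difference was not worked out, so nothing is read from this count. Of 10 tested interferon response genes 5 had a log2 difference above 0 and 5 below. For 19 synaptic vesicle genes it was 12 above and 7 below, and both lists had a median of 0.03. Ebf3, a transcription factor of Cajal-Retzius cells, was at 10.1 and 11.2 CPM in SE and 9.27 CPM in WT at basal. After KCl it was at 10.6 and 11.8 CPM in SE and 8.78 CPM in WT (log2 0.27, adjusted p = 0.97).

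Markers of neurons had medians near 0. The 22 glutamatergic and layer markers tested had a median of 0.02, and the 20 GABAergic markers 0.06. Slc17a6, the vesicular glutamate transporter VGLUT2, was at 23.2 and 25.5 CPM in SE and 19.9 CPM in WT at basal, and at 20.1 and 25.1 CPM in SE and 18.8 CPM in WT after KCl (log2 0.28, adjusted p = 0.853). Neurod1, a bHLH factor of newborn neurons, had a difference of 0.31 and Neurod6, its relative in maturing cortical neurons, of -0.14. The labelled cell type was present by its markers in all 6 libraries, the glutamatergic list summing to 1732 to 2194 TPM in SE and 1723 to 1970 TPM in WT. Astrocyte markers had a median of -0.05, oligodendrocyte lineage markers 0.04, microglia and macrophage markers 0.03, and endothelial and mural markers -0.0043.

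Mitochondrially encoded genes leaned lower in SE without a call. Of 13 protein genes 12 had a difference below 0, and the median was -0.18. In both treatments 9 lay below WT, as did 11.1% of all tested genes. All 13 share the same WT library in each treatment, so they are not separate observations. mt-Atp8, an ATP synthase subunit, was at 413 and 330 CPM in SE and 492 CPM in WT at basal, and at 322 and 316 CPM in SE and 403 CPM in WT after KCl (log2 -0.37, adjusted p = 0.131). mt-Nd6, a complex I subunit encoded on the opposite strand from the rest, differed by -0.40 (adjusted p = 0.142). The mitochondrial share of counts was 7.72% and 7.35% in SE and 8.32% in WT at basal, and 5.91% and 6.78% in SE and 6.90% in WT after KCl, so it was below WT in every SE library of the same treatment.

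**Figure D5:**
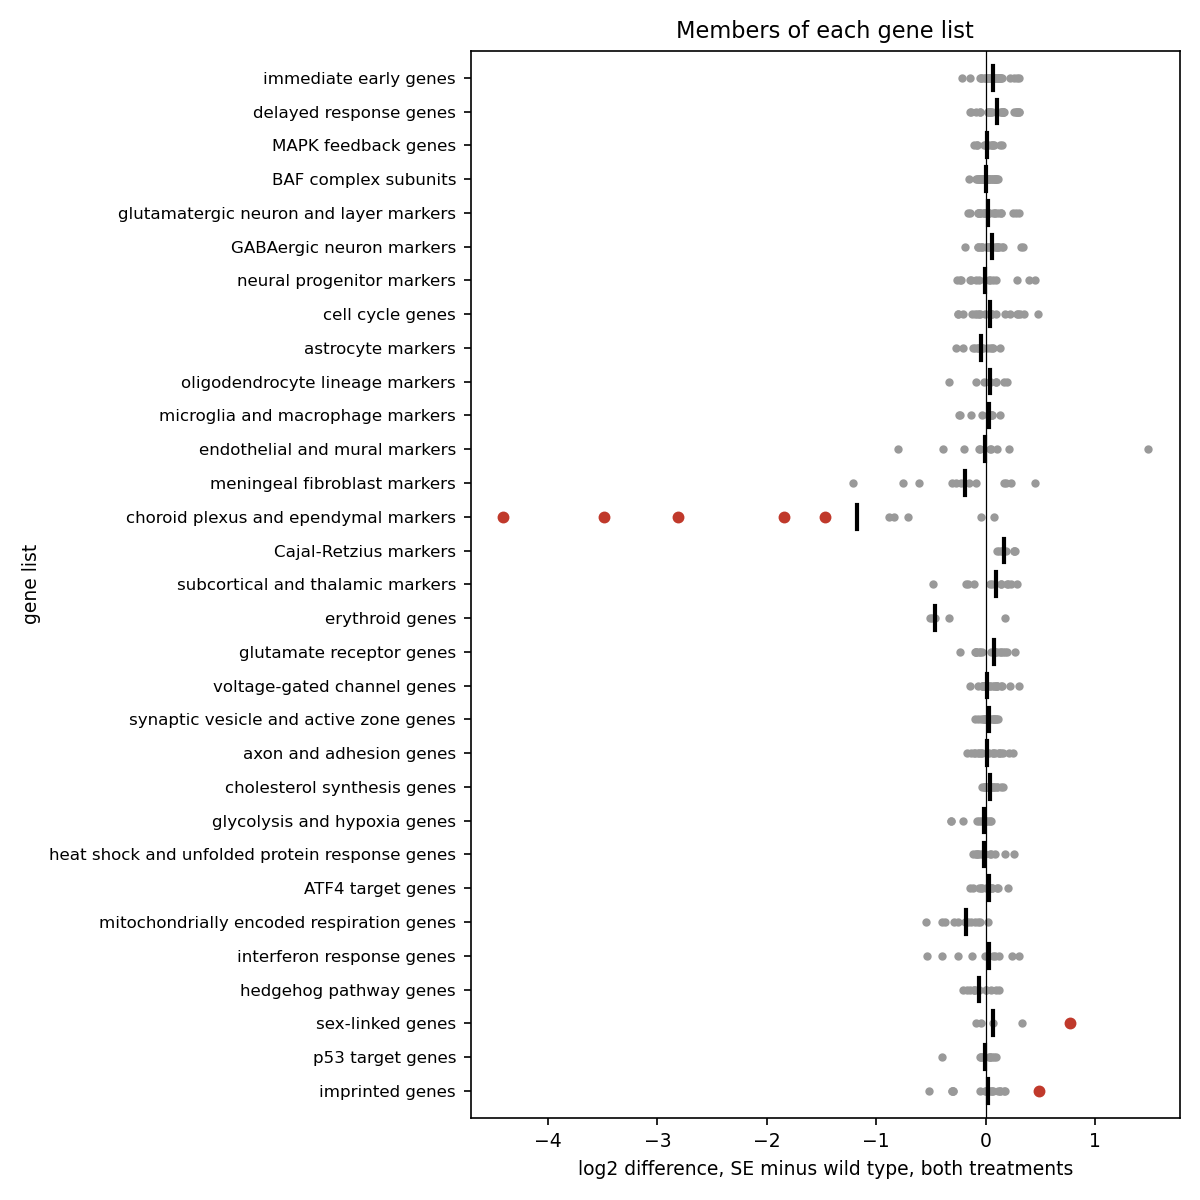
Each row is 1 gene list, each point the log2 difference (SE minus wild type over both treatments) of 1 tested member, and the black bar the list's median. Red points are called genes: 5 in the choroid plexus list, Eif2s3y in the sex-linked list and Ndn in the imprinted list.

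Sex-linked genes were checked because the labels give no sex. Eif2s3y, a Y-linked translation factor gene, was at 12.3 and 9.28 CPM in SE and 5.85 CPM in WT at basal, and at 10.4 and 9.14 CPM in SE and 6.21 CPM in WT after KCl (log2 0.77 ± 0.14, adjusted p = 0.0294). Ddx3y, another Y-linked gene, was at 12.7 and 10.5 CPM in SE and 12.4 CPM in WT at basal, and at 17.2 and 20.4 CPM in SE and 16.2 CPM in WT after KCl, with overlap at basal. Xist, transcribed from the inactive X chromosome of female cells, was at 261 and 167 CPM in SE and 285 CPM in WT at basal, and at 150 and 190 CPM in SE and 140 CPM in WT after KCl. Neither Ddx3y nor Xist passed, and both changed sign when single libraries were left out. Kdm5d, also Y-linked, was at a mean of 6.963 CPM in SE at basal, against 5.371 CPM in WT. Its SE mean after KCl was 5.478 CPM, against 4.501 CPM in WT. The log2 difference of Kdm5d was 0.33, which did not pass (edgeR adjusted p = 0.97) but kept its sign in all 14 alternative settings. Every library held RNA of both Xist and Y-linked genes.

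The position of the calls was compared with that of the edited gene. Of 123 tested genes within 10 Mb of Smarca4 none was called and 2 had an unadjusted p under 0.05. On chromosome 9 as a whole 3 of 905 were called, among 37 of 15895 genes with a position.

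Tested within single treatments, no gene was called. At basal edgeR called 0 of 17732 genes (0%) in the 14-library fit and 187 had an unadjusted p under 0.05 (1.05%), and DESeq2 called 0. After KCl it called 0 with 240 at an unadjusted p under 0.05 (1.35%), and DESeq2 called 1. A fit of the 6 SE-line libraries with 4 group means called 10 at basal and 31 after KCl. Of 14074 genes of at least 1 CPM, 55.4% had the same sign of SE minus WT at basal and after KCl.

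The difference in KCl response, SE minus WT, asks whether depolarisation acted differently in the 2 genotypes. No gene was called (0 of 17732, 0%), 159 had an unadjusted p under 0.05 (0.897%), and DESeq2 called 1. Among the genes of lowest p, Itga2, an integrin subunit, was at 1.03 and 1.17 CPM in SE and 0.520 CPM in WT at basal, and at 0.579 and 0.751 CPM in SE and 1.31 CPM in WT after KCl (log2 difference in response -2.03 ± 0.48, adjusted p = 1.00). Kif16b, an endosomal kinesin, was at 4.501 and 4.29 CPM in SE and 2.90 CPM in WT at basal, and at 5.04 and 4.33 CPM in SE and 6.42 CPM in WT after KCl. Its difference in response was -1.04, and that of St14, a membrane serine protease gene, was 2.30. Zbed6, a zinc finger gene nested in an intron of another gene, was at 1.60 and 1.90 CPM in SE and 0 CPM in WT after KCl, and at 1.67 and 0.650 CPM in SE and 1.73 CPM in WT at basal. Among the choroid plexus genes Lrat had a difference in response of -2.30 ± 1.00 and Ttr of -0.84 ± 2.35, and neither passed. The difference in response of Npas4 was -0.24 ± 0.29 and of Bdnf -0.06 ± 0.40.

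The SE effect was also set against that of the alanine mutant, as (SE minus its WT) minus (SA minus its WT) over both treatments. No gene was called (0 of 17732, 0%), 1208 had an unadjusted p under 0.05 (6.81%), and DESeq2 called 19. Trpv4 and Slc2a12 were among the 3 genes of lowest p with a negative difference, at -3.54 ± 0.65 and -2.08 ± 0.38 on the log2 scale. For Ttr the difference between the effects was -2.82 ± 1.48, for Enpp2 -3.12 ± 0.83 and for Aqp1 -3.34 ± 0.98 (edgeR adjusted p = 0.737, 0.677 and 0.677). These genes, like Trpv4 and Slc2a12, were called from the same SE and WT libraries, so this is not separate evidence. For Ndn and Capn11, called higher in SE, the difference between the effects was -0.20 ± 0.40 and -1.33 ± 2.09. Both errors exceed their estimates, so the SE and SA effects on Ndn and Capn11 cannot be ranked by them. Asxl2, a chromatin regulator of the Polycomb and trithorax groups, led the positive side with Adamts12, a metalloprotease gene, and Samd5. Asxl2 was at 19.2 and 17.0 CPM in SE and 15.8 CPM in WT at basal, and at 16.3 and 16.3 CPM in SE and 12.6 CPM in WT after KCl, with a difference of 0.81 ± 0.14 (adjusted p = 0.599). All SE values of Asxl2 lay above WT of the same treatment, and its SE against WT difference of 0.28 did not pass.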

How the data were processed

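The authors ran kallisto 0.43.1 (the submitters' processing notes name it beside the builds GRCm38 and mm10) and deposited estimated counts and TPM per transcript and per gene symbol. An estimated count is the model's share of reads and need not be whole, so near-identical genes may trade reads; whether counting used strand is not stated in the labels. The deposited TPM values were used for marker sums and transcripts.

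Estimated counts were rounded and tested with edgeR 4.0.16 in R 4.3.3 (TMM, filterByExpr, quasi-likelihood). SE against WT used the 6 SE-line libraries with treatment as covariate (16378 genes, 3 residual degrees of freedom). Single treatments, the response difference and the comparison with SA used 8 group means over 14 libraries (17732 genes, 6 residual degrees of freedom), so single WT libraries were assumed to vary like the other groups. Calls were made where the p adjusted by Benjamini-Hochberg over all genes tested was under 0.05. Scripts were tested on simulated counts.

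The comparison, the 31 gene lists and the naming rule were chosen with earlier results of these data known. The rule took Smarca4, up to 12 called genes per direction with the largest change, at least 1 CPM and 1 side of WT in both treatments (made up to 10 by lowest p), 3 genes per direction for the last 2 comparisons, and up to 4 per described list. Unnamed models, pseudogenes and sex-linked genes were left out of the ranked part. Not every gene the rule takes is printed. Positions are from GENCODE. Alternatives were other libraries, RLE factors, other filters, DESeq2 1.42.0, limma 3.58.1 on log2(TPM + 1) and with a culture block, sums per culture, and leaving out each library.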

Additional observations from a re-analysis of the deposited data

How the results depend on the processing

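The count of 37 called genes was 37 with RLE factors and 33 at a mean of at least 1 CPM. It was 0 with all 14 libraries, 0 without a filter, 0 with counts summed per culture, 23 with DESeq2 (20 shared with the 37) and 1 with limma on log2(TPM + 1). Leaving out 1 library gave 9 (WT KCl) to 82 (SE basal replicate 1), with 20 without SE KCl replicate 1. Called list members, 7 in all, were 0 with 14 libraries, without a filter, with sums per culture and with TPM, and 0 to 14 without 1 library. Genes on 1 side of WT in both treatments numbered 3708, and 5202 to 10601 without 1 library, where fewer libraries have to lie on that side. With 6 libraries instead of 14, calls were 10 at basal, 31 after KCl and 4 for the response difference. Without a filter 3 were called after KCl and 2 for SE minus SA; DESeq2 called 1 after KCl, 1 for the response difference and 19 for SE minus SA. The cause of these changes was not tested.

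With a replicate block (culture as a random effect in limma voom) 67 genes were called, 36 of them among the 37, and 12 list members. The correlation that limma estimated between libraries of a culture was -0.352 in this fit of 6 libraries. In the fit of 14 libraries it was 0.550. At a value below 0 the block treats libraries of a culture as less alike than others. Counts summed per culture called 0 genes, so the rise to 67 is not read as stronger evidence. The other comparisons kept 0 called genes under the block. Basal and KCl deviations of a replicate number correlated at -0.0803 across 16378 genes, and the labels do not state a pairing.

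Fos reversed to -0.0589 with 14 libraries, -0.0349 with DESeq2 and -0.00532 with TPM, and Egr1 to 0.10 with sums per culture. Without 1 library the log2 differences ran from -0.00493 to 0.0657 for Smarca4, -0.33 to 0.21 for Fos, -0.24 to 0.12 for Egr1, -0.0278 to 0.22 for Arc, -0.0609 to 0.22 for Nr4a1, -0.10 to 0.26 for Foxj1, -0.18 to 0.13 for Kl, -0.11 to 0.23 for Ddx3y, -0.42 to 0.29 for Xist, and -0.17 to 0.0289 for the Bdnf response difference. Contrasts that need an omitted WT library could not be fitted. No called gene followed here reversed in any setting.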

Other observations

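Of the 6 called genes that were higher in SE, 3 were Gm10146, Rpl14-ps1 and Gm7336, named here after their values were seen. Gm10146 was at 2.19 and 0.954 CPM in SE at basal and 2.50 and 3.31 CPM after KCl, and had 0 counts in both WT libraries. Rpl14-ps1, a pseudogene of a ribosomal protein gene, was at 1.41 and 0.434 CPM in SE at basal and 8.91 and 2.47 CPM after KCl, and likewise had 0 counts in both WT libraries. Gm7336 was at 3.13 and 3.82 CPM in SE and 1.30 CPM in WT at basal, and at 7.44 and 3.98 CPM in SE and 2.19 CPM in WT after KCl (edgeR log2 1.40, adjusted p = 0.0294). Gm10146 was also the 1 gene called by limma on log2(TPM + 1), and it kept its call without the WT library after KCl (adjusted p = 0.0291). Reads of a pseudogene can be assigned to the parent gene or to the copy, and the split was not tested.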
